A study of Glycyrrhiza uralensis with 12 samples.

Results

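The genes described here are the 4 *Glycyrrhiza uralensis* genes that the study listed as glucosidases of starch and sucrose metabolism, out of 29436 genes with a value. They are 1 α-glucosidase gene, Glyur000005s00001105, and 3 β-glucosidase genes, Glyur000779s00022830, Glyur000585s00027748 and Glyur000214s00016036. Libraries of full-length cDNA were made by the Oxford Nanopore protocol from whole ground seedlings of this licorice, a medicinal legume, 12 in all, 3 for each of 4 treatments, all from seedlings 45 days old. CK was the control without salt, S received 75 mM NaCl, CK + G2 and S + G2 received in addition *Bacillus cereus* G2, an endophytic bacterium, and the sample records write these last groups as CK+B and S+B. The sequencer is not certain, since the sample records give a nanopore instrument beside an Illumina preparation and the methods give an Illumina instrument. The libraries of a treatment are described as biological replicates of seedlings grouped by weight. How many plants a library holds is not stated, so p-values measure the spread between these libraries. Values are in CPM, the reads on a gene per 1000000 reads mapped in that library, and depth was 3303591 to 3929023 reads, so that 3 reads, the limit that a count of 0 allows, were worth 0.764 to 0.908 CPM, counting error only. CPM values are not divided by length, so levels were compared between treatments and not between genes. The deposited annotation names no functions, so enzyme names are those of the study, and neither they nor the tissue could be checked against marker genes.

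Glucosidases cut glucose from the non-reducing end of sugars and glycosides. α-Glucosidases act on the α-linked glucose of maltose and short glucans, the products of starch breakdown, and some also split sucrose. β-Glucosidases act on β-linked glucose, in the short sugars released from cellulose and other cell wall glucans and in the glucosides in which plants store phenolic compounds and hormones, and legumes such as licorice hold many isoflavone and flavanone glucosides. In both families the product is free glucose, which hexokinase can pass on to glycolysis.

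The study designed primer pairs for reverse-transcription PCR of 3 of the 4 genes, and these are shown because they are the study's own sequences for these transcripts. Each is written 5′ to 3′ in lower case, and no letter is marked. No primers are listed for Glyur000779s00022830.
α-glucosidase Glyur000005s00001105, forward: taccactcctactccactcccact
α-glucosidase Glyur000005s00001105, reverse: caaagacttgcctgttgtggg
β-glucosidase Glyur000585s00027748, forward: gctgagtctgtggtgcctgaa
β-glucosidase Glyur000585s00027748, reverse: gccataccctctacttgaaacgc
β-glucosidase Glyur000214s00016036, forward: ttcctaccccaccactaatgagat
β-glucosidase Glyur000214s00016036, reverse: ctctcacatctgctcctttcctt
They are 21 to 24 bases long with a GC content of 45.8% to 57.1%, and the 6 sequences were not placed on the gene models here because no genome sequence was used.

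The 4 gene models differ in size and exon number. The α-glucosidase gene lies at Scaffold00005:605785-609500 on the plus strand of the deposited annotation, whose genome release the sources used here do not give. It has 5 exons in 3716 bases and a coding length of 2757 bases, or 918 codons. Among the β-glucosidase genes, Glyur000585s00027748 (Scaffold00585:117278-121647, plus strand) is the shortest, with 11 exons and 453 codons. Glyur000779s00022830 (Scaffold00779:2029-21541, minus strand) spreads 18 exons and 558 codons over 19513 bases, and no untranslated region is annotated for it. Glyur000214s00016036 (Scaffold00214:213507-223749, plus strand) has 19 exons and 837 codons. In Glyur000214s00016036 a run of 3 exon lengths occurs in exons 8 to 10 and again in exons 16 to 18, at 256, 103 and 109 bases each time. Such a repeated run was found in 224 of 11397 genes with at least 6 exons (1.97%). The neighbouring lengths 103 and 109 also stand side by side in exons 8 and 9 of Glyur000779s00022830, and 10 of those 11397 genes (0.0877%) have this pair. The pair was picked because these β-glucosidase genes share it, and both are among the 10, so the percentage is a description. Glyur000585s00027748 and the α-glucosidase gene have neither the repeated run nor the pair. These are lengths only, and the sequences of the exons were not compared.

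**Figure D1:**
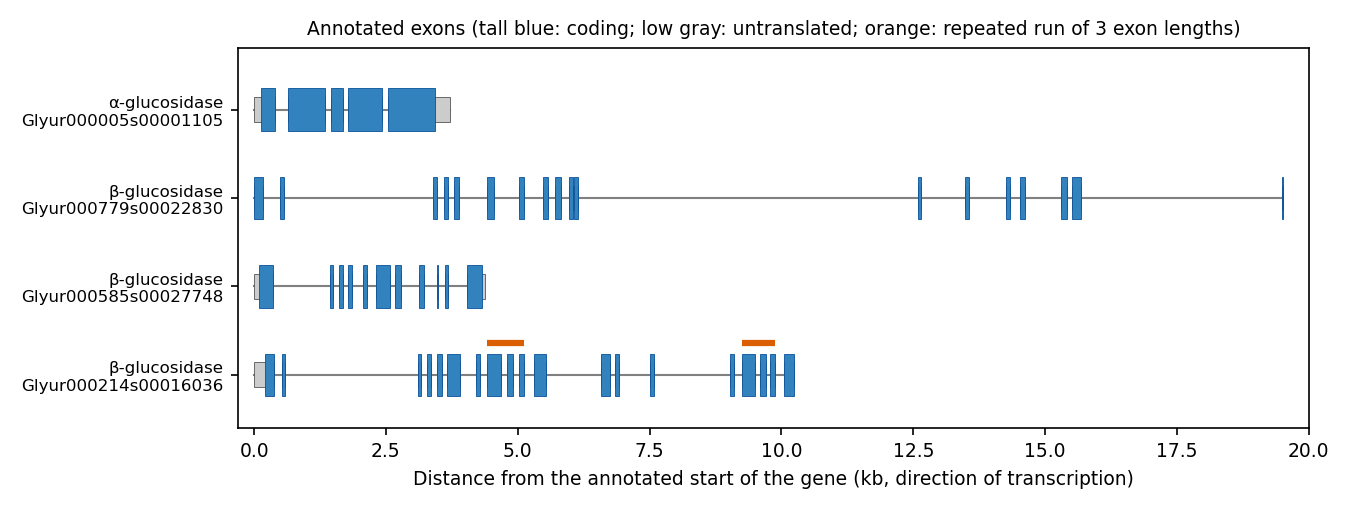
Annotated exons of the 4 genes, drawn to scale by distance from the start of the gene in kb, with coding parts tall and untranslated parts low. The α-glucosidase gene has 5 large exons, and orange bars mark exons 8 to 10 and 16 to 18 of Glyur000214s00016036, whose lengths repeat.

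The α-glucosidase transcript was most abundant in S + G2. Its level was 17.5, 17.7 and 20.6 CPM in the CK libraries and 23.2, 22.6 and 17.9 CPM in the CK + G2 libraries. In S it was 23.2, 19.1 and 14.8 CPM, and in S + G2 it was 34.1, 27.7 and 33.4 CPM. All S + G2 libraries lay above every other library, while the ranges of CK, CK + G2 and S overlapped. The means were 18.6 ± 1.72 CPM for CK, 21.3 ± 2.90 for CK + G2, 19.0 ± 4.22 for S and 31.7 ± 3.50 for S + G2 (SD, n = 3), and 58 to 129 reads stood behind each value. In the order S + G2, CK + G2, S and CK, only S + G2 and CK + G2 were neighbours whose ranges did not overlap.

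**Figure D2:**
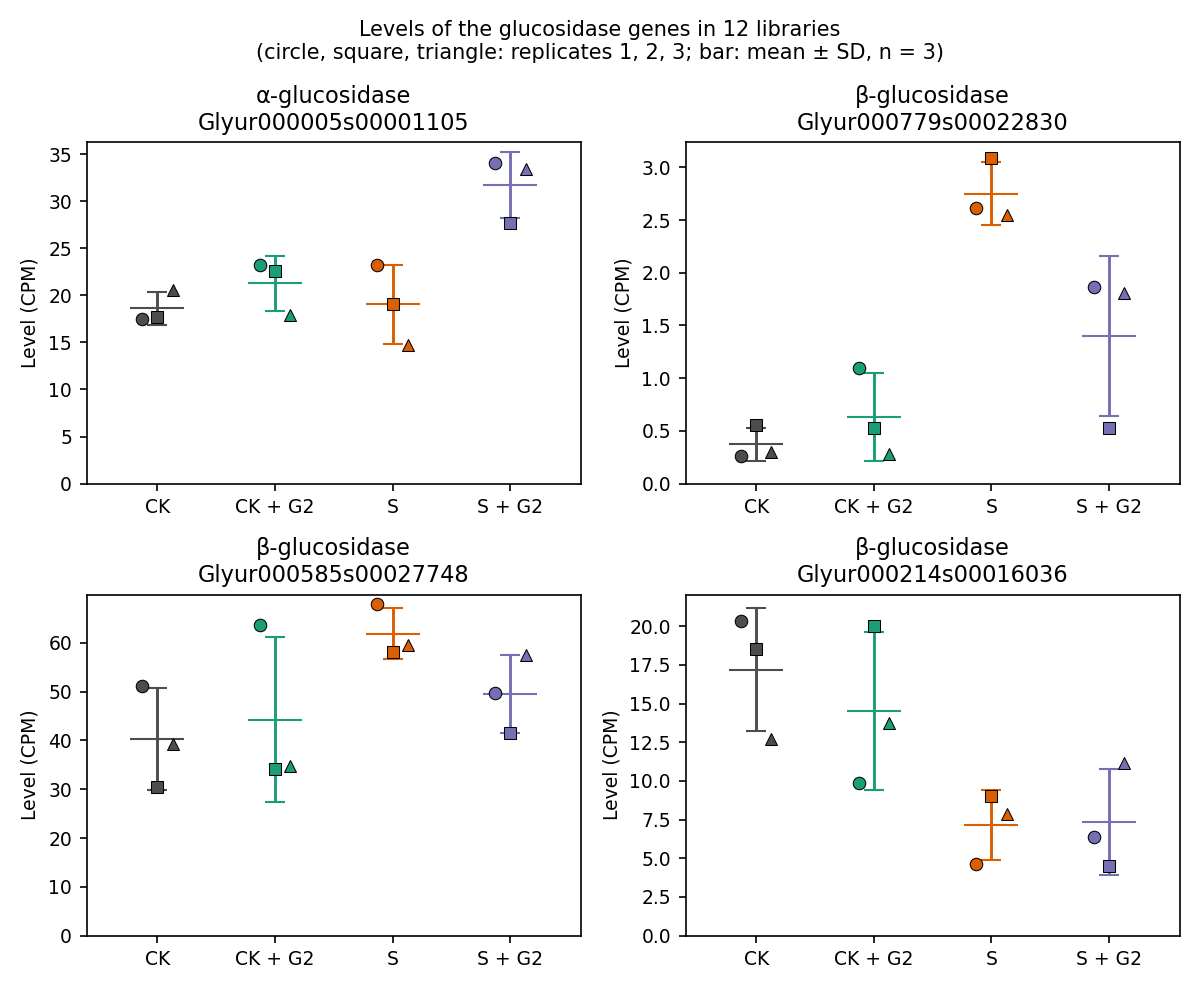
Levels in CPM of the 4 genes in each of the 12 libraries (symbols, by replicate number) with the mean and SD of each treatment (n = 3). The α-glucosidase is highest in the S + G2 libraries, at 27.7 to 34.1 CPM, while Glyur000779s00022830 and Glyur000585s00027748 have their highest mean in S and Glyur000214s00016036 in CK.

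The study listed the α-glucosidase gene for its rise in S + G2 vs. S, so the 0.72 by which it was higher there on the log2(CPM + 1) scale is a description, from which nothing is read. The study's quantitative PCR, made on the same RNA pools, also gave a higher α-glucosidase level with G2 under salt. The G2 difference in the libraries that the listing did not use is CK + G2 vs. CK. Without salt, the α-glucosidase level was 0.18 higher with G2 on the log2 scale (SE 0.19, 95% interval -0.24 to 0.60, limma adjusted p = 0.99977), a difference within the spread between libraries. The interval holds no change as well as a rise of up to 0.60, so a smaller response could not be resolved with 3 libraries a group. Leaving out each library in turn gave 0.11 to 0.29 and no call.

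Salt without G2 left the α-glucosidase at nearly the same mean, with a log2 difference of 0.01 for S vs. CK (SE 0.20, 95% interval -0.43 to 0.46, limma adjusted p = 0.987), and its sign changed with single libraries. The S libraries here are among those that the listing used, so S vs. CK is no independent measure for this gene. In seedlings given G2, the α-glucosidase level was 0.56 higher with salt (SE 0.19, 95% interval 0.14 to 0.98), and the S + G2 and CK + G2 libraries did not overlap. The adjusted p was 0.419 by limma over 21664 genes, so the difference did not pass. This comparison uses the S + G2 libraries by which the gene was listed, and is no independent measure. The salt difference with G2 exceeded that without G2 by 0.55 (SE 0.26), given as a description because it contains the listed comparison. Over all genes, this interaction passed in 1 of 22751 (0.00440%).

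The β-glucosidase Glyur000779s00022830 was near the limit of detection in the seedlings without salt. It had 1, 2 and 1 reads in the CK libraries (0.257, 0.554 and 0.303 CPM) and 4, 2 and 1 reads in the CK + G2 libraries (1.09, 0.526 and 0.280 CPM). In S it had 9, 11 and 10 reads (2.61, 3.09 and 2.55 CPM), and in S + G2 it had 7, 2 and 7 reads (1.86, 0.528 and 1.81 CPM). The S libraries lay above all others, and 1 S + G2 library had as few reads as the seedlings without salt. The study listed this gene for its rise in S vs. CK, where the pooled reads were 30 against 4, a depth-corrected ratio of 7.41 with a 95% counting interval of 2.61 to 28.9.

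In the libraries the listing did not use, S + G2 vs. CK + G2, Glyur000779s00022830 had 16 against 7 reads, a ratio of 2.21 with a 95% counting interval of 0.860 to 6.35. On the log2(CPM + 1) scale the difference was 0.53 (SE 0.38, 95% interval -0.33 to 1.39, limma adjusted p = 0.655), within the spread between libraries. A log2 scale with 1 CPM added understates the change of so low a gene. With single libraries left out the difference was 0.37 to 0.83 where the gene kept enough reads to be tested. With salt, G2 seedlings had a level 0.70 lower than S (95% interval -1.46 to 0.06, limma adjusted p = 0.846), with no overlap between the libraries, but the S libraries here are those that the listing used. In CK + G2 vs. CK only 1 library reached 1 CPM and the gene was not tested. The reads were 7 against 4, a ratio of 1.71 with a counting interval of 0.436 to 7.99, and the listing used these CK libraries too.

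The β-glucosidase Glyur000585s00027748 was higher in the S libraries than in CK. Its level was 51.2, 30.5 and 39.4 CPM in CK, 63.7, 34.2 and 34.8 CPM in CK + G2, 67.9, 58.2 and 59.6 CPM in S and 49.8, 41.4 and 57.5 CPM in S + G2. Replicate 1 of CK + G2 stood well above the other CK + G2 libraries and within the range of S. The means were 40.3 ± 10.4 CPM for CK, 44.2 ± 16.9 for CK + G2, 61.9 ± 5.23 for S and 49.6 ± 8.02 for S + G2 (SD, n = 3). The study listed the gene for its rise in S vs. CK, which was 0.63 on the log2 scale and is a description. In order of the mean, S and S + G2 were neighbours without overlap, while S + G2, CK + G2 and CK overlapped.

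With G2 the salt difference of Glyur000585s00027748 was 0.21 (SE 0.26, 95% interval -0.38 to 0.80, limma adjusted p = 0.809) and lay within the spread between libraries. Its small size depended on replicate 1 of CK + G2, since without that library the difference was larger, at 0.50 (95% interval 0.06 to 0.94, limma adjusted p = 0.293), still not called. Leaving out the other libraries gave 0.06 to 0.33. Under salt the level was 0.32 lower with G2 than without it (95% interval -0.69 to 0.04, limma adjusted p = 0.851), with no overlap but with the S libraries used for the listing. In CK + G2 vs. CK the difference was 0.10 (95% interval -0.52 to 0.71, limma adjusted p = 0.99977), and it was -0.19 without replicate 1 of CK + G2. The CK libraries here were used for the listing as well. By the study's quantitative PCR on the same RNA pools, Glyur000585s00027748 was higher with salt.

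The β-glucosidase Glyur000214s00016036 went the other way and was lower in the salt-treated seedlings. Its level was 20.3, 18.5 and 12.7 CPM in CK and 9.84, 19.99 and 13.7 CPM in CK + G2. In S it was 4.64, 8.998 and 7.89 CPM, and in S + G2 it was 6.39, 4.49 and 11.1 CPM. No S library reached the level of a CK library, whereas the highest S + G2 library lay above the lowest CK + G2 library. The means were 17.2 ± 3.99 CPM for CK, 14.5 ± 5.12 for CK + G2, 7.18 ± 2.26 for S and 7.33 ± 3.42 for S + G2 (SD, n = 3), on 16 to 79 reads per library. In the order CK, CK + G2, S + G2 and S all neighbours overlapped.

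The study listed Glyur000214s00016036 for its fall in S vs. CK, where it was lower by 1.17 on the log2 scale (a log2 difference of -1.17), which is a description. In the libraries the listing did not use, S + G2 vs. CK + G2, the log2 difference was -0.92 (SE 0.35, 95% interval -1.72 to -0.13), from 161 reads in CK + G2 to 84 in S + G2. The limma adjusted p over 21664 genes was 0.450, so the difference did not pass. It did meet the looser criterion of the methods, read here as an unadjusted p under 0.05 and a change of 1.5-fold or more and called the 1.5-fold criterion. That criterion was lost without replicate 2 of CK + G2 (-0.68), replicate 3 of CK + G2 (-0.93), replicate 1 of S + G2 (-0.88) or replicate 2 of S + G2 (-0.66), and with DESeq2 (-0.88). The difference without replicate 1 of CK + G2 was -1.16. Without salt, the gene differed by -0.26 between CK + G2 and CK (95% interval -0.89 to 0.37, limma adjusted p = 0.99977). Under salt it differed by -0.01 between S + G2 and S (95% interval -0.80 to 0.79, limma adjusted p = 0.998), with a sign that turned positive under other scalings. The listing used the CK and the S libraries, so neither of these G2 differences is an independent measure. The study's quantitative PCR on the same RNA pools gave lower Glyur000214s00016036 with salt. Unlike the -0.01 here, it also gave a lower level with G2 under salt.

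**Figure D3:**
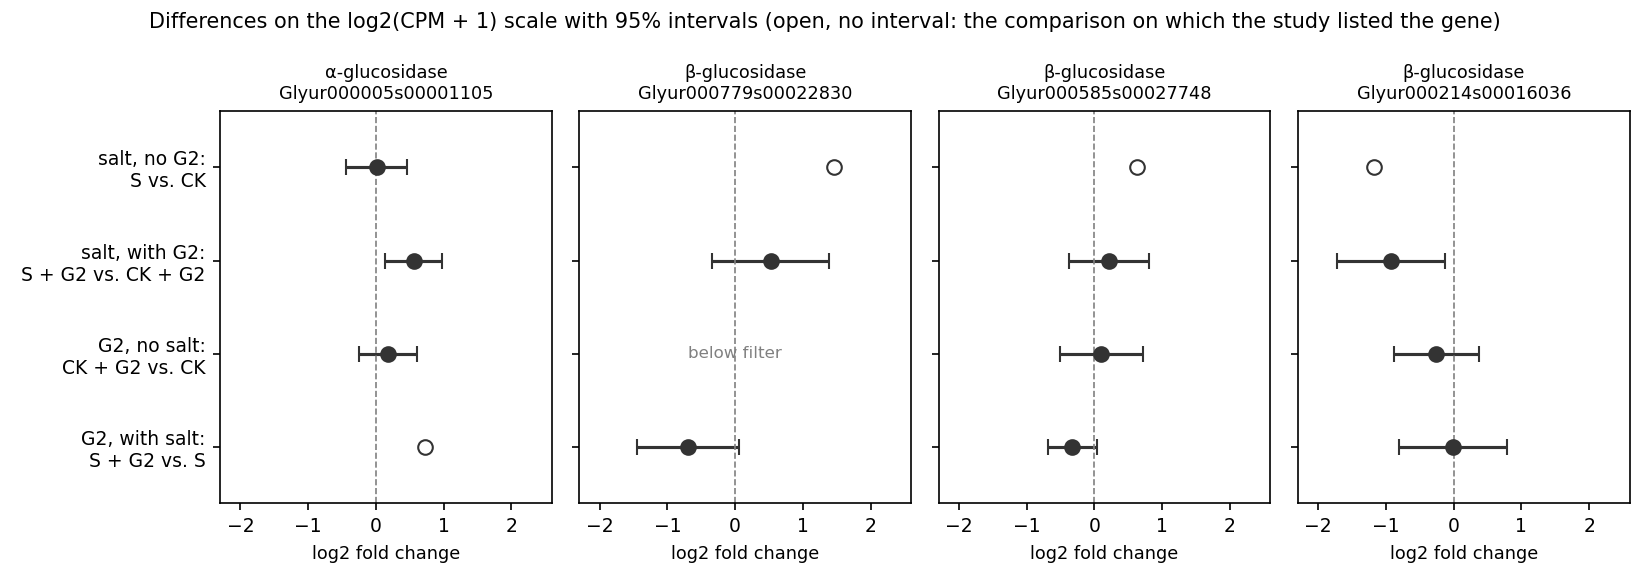
Log2 fold changes of the 4 genes in the 4 comparisons on the log2(CPM + 1) scale with 95% intervals from limma, with open points, without an interval, where the study listed the gene for that comparison. Among the filled points the interval excludes 0 for the α-glucosidase (0.56) and for Glyur000214s00016036 (-0.92) in S + G2 vs. CK + G2. For the α-glucosidase this uses the S + G2 libraries by which the gene was listed, and is no independent measure. The same holds for every filled point that shares a group with the listed comparison. Only CK + G2 vs. CK for the α-glucosidase and S + G2 vs. CK + G2 for the β-glucosidases share none.

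Read against all genes, few glucosidase differences passed. At an adjusted p under 0.05, limma called 418 of 21543 genes in S vs. CK (1.94%), 1 of 21518 in S + G2 vs. S (0.00465%), 13 of 21675 in CK + G2 vs. CK (0.0600%) and 8 of 21664 in S + G2 vs. CK + G2 (0.0369%). Of the glucosidase genes only Glyur000779s00022830 was called, in S vs. CK, the comparison it was listed for, so nothing is read from this call. It was lost with a pseudocount of 0.1, with the annotated transcripts alone, with the replicate block and without any one of the CK libraries. Without any one of the S libraries, with edgeR or with a filter at a mean of 10 reads, the gene was too low to be tested. In the other 3 comparisons none was called by limma, edgeR or DESeq2. At an unadjusted p under 0.05 limma gave 15.3% of all genes in S vs. CK, 5.88% in S + G2 vs. S, 6.03% in CK + G2 vs. CK and 10.02% in S + G2 vs. CK + G2. Among the glucosidase genes this held for 3 in S vs. CK and 1 in S + G2 vs. S, each in the comparison it was listed for. It held for 0 of the 3 tested in CK + G2 vs. CK and for 2 in S + G2 vs. CK + G2, namely the α-glucosidase and Glyur000214s00016036. For the α-glucosidase, S + G2 vs. CK + G2 uses the S + G2 libraries by which it was listed. The 1.5-fold criterion was met by 10.8% of all genes in S vs. CK, 3.84% in S + G2 vs. S, 4.91% in CK + G2 vs. CK and 7.77% in S + G2 vs. CK + G2. Among the glucosidase genes it was met by the 3 β-glucosidases in S vs. CK and by the α-glucosidase in S + G2 vs. S, the listed comparisons, by none in CK + G2 vs. CK and by Glyur000214s00016036 in S + G2 vs. CK + G2. The α-glucosidase missed it in S + G2 vs. CK + G2 with a fold of 1.47, but met it with edgeR, DESeq2, TMM scaling or median-of-ratios scaling.

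Groups that do not overlap were frequent over all genes, at 20.4% in S vs. CK, 11.5% in S + G2 vs. S, 10.4% in CK + G2 vs. CK and 15.1% in S + G2 vs. CK + G2. The 3 β-glucosidase genes did not overlap in S vs. CK. Neither did the α-glucosidase, Glyur000779s00022830 and Glyur000585s00027748 in S + G2 vs. S, and the α-glucosidase in S + G2 vs. CK + G2, while every gene overlapped in CK + G2 vs. CK. In these seedlings as a whole, fewer cells that express a gene and less RNA per cell cannot be told apart.

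**Figure D4:**
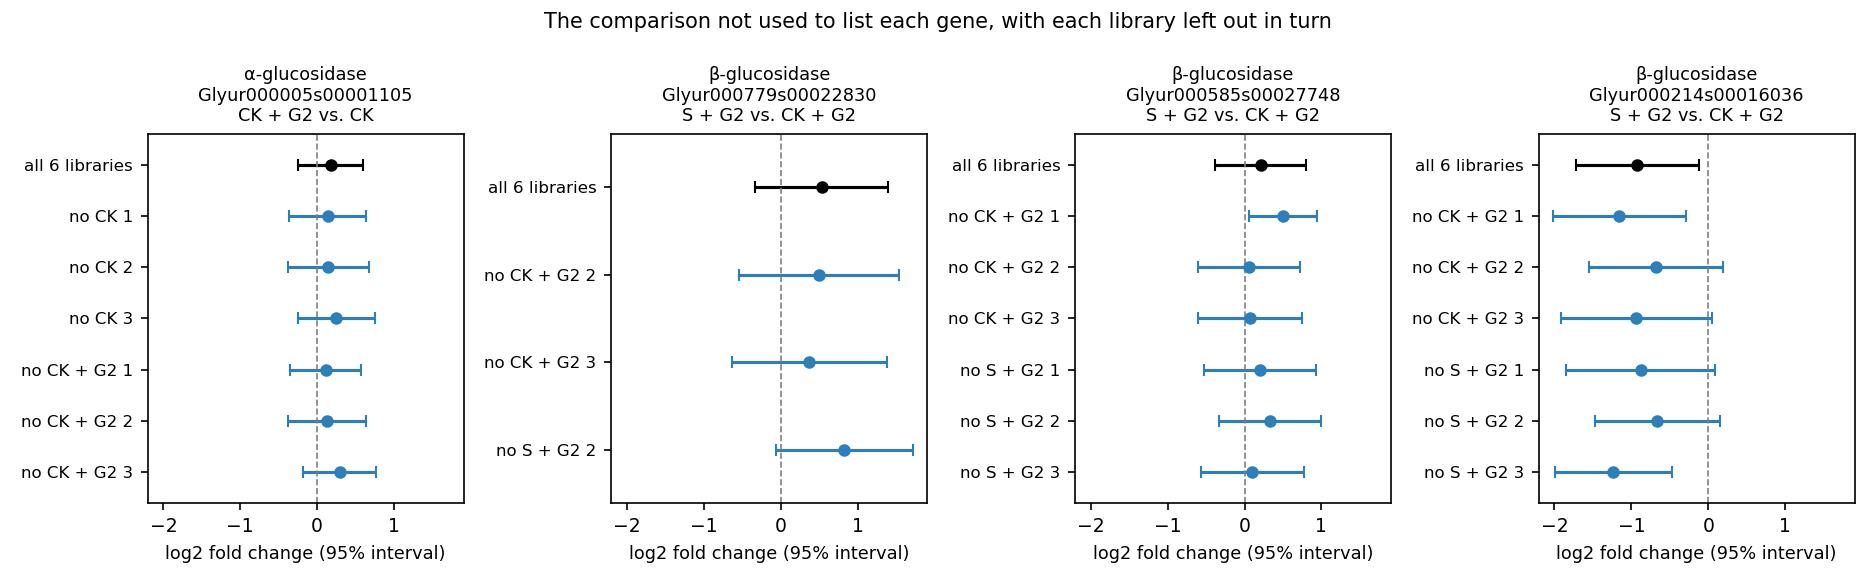
For each gene, the log2 fold change and 95% interval in the comparison that the study did not list it for and that shares no library with the listed one, with all 6 libraries (black) and with each library left out (blue). Glyur000214s00016036 stays between -1.23 and -0.66, Glyur000585s00027748 moves from 0.21 to 0.50 without replicate 1 of CK + G2, and Glyur000779s00022830 could be tested in 3 of the 6 settings.

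The reads of the β-glucosidase genes came from different kinds of transcript. All 1003 reads of the α-glucosidase gene and all 57 reads of Glyur000779s00022830 were on the annotated transcript. In Glyur000585s00027748 only 16 of 2167 reads (0.738%, exact 95% interval 0.423% to 1.20%) were on it, with 0 to 4 in each library. In Glyur000214s00016036 it was 47 of 512 reads (9.18%, exact 95% interval 6.82% to 12.02%), with 0 to 10 in each library. The other 2151 and 465 reads equalled, in each of the 12 libraries, the reads of a transcript that the authors assembled from the reads, ONT.11112.1 and ONT.7056.1. The tables do not state which gene an assembled transcript belongs to, and the pairing is an inference from equal reads made after seeing the data. Of 14221 genes with more than 20 reads outside the annotated transcripts, 13722 (96.5%) had exactly 1 such match.

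The salt difference of Glyur000214s00016036 was also computed on each kind of transcript. Between S + G2 and CK + G2 the assembled transcript alone differed by -1.05 (limma adjusted p = 0.476), while the annotated transcript alone differed by -0.16 (limma adjusted p = 0.932) on few reads. The annotated transcript had 1, 7 and 3 reads in the CK + G2 libraries and 4, 5 and 0 in the S + G2 libraries, too few to say whether it differed from the assembled one, which was not tested. For Glyur000585s00027748 the assembled transcript carried nearly the whole value, and the annotated transcript was too rare to be tested.

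**Figure D5:**
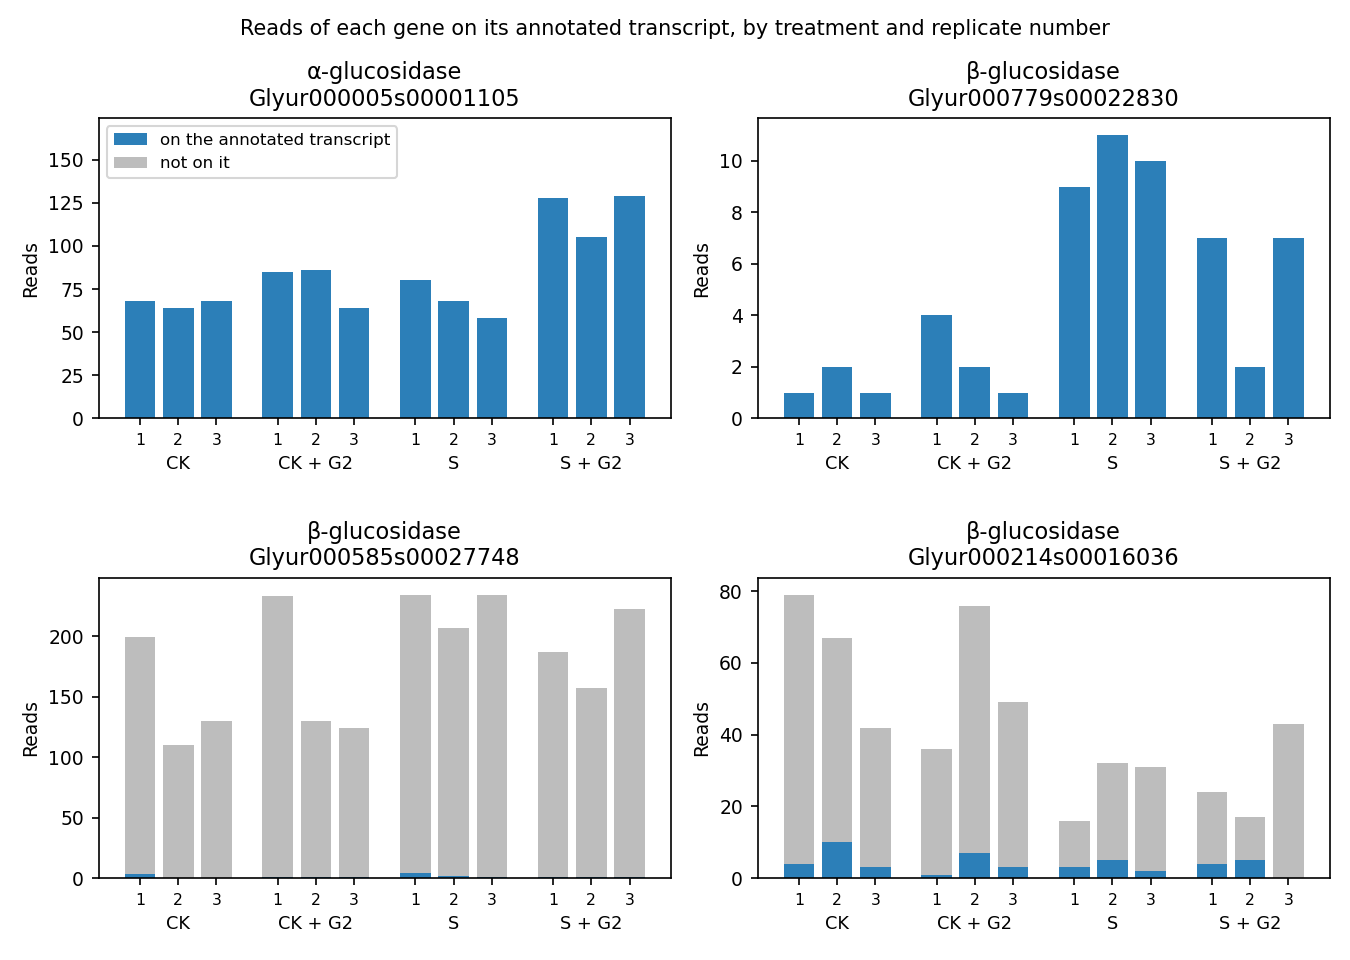
Reads of each gene in the 12 libraries, by treatment and replicate number, split into reads on the annotated transcript (blue) and other reads (gray). The α-glucosidase gene and Glyur000779s00022830 have no gray part, while Glyur000585s00027748 has 0 to 4 blue reads in a library.

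The other genes that the study listed for starch and sucrose metabolism were 7, and like the glucosidases they were chosen on these libraries, so their counts in the comparisons they were listed for are not independent evidence. They encode invertase (INV) and sucrose synthase (SS), which split sucrose, a pair of β-amylases (BM), which release maltose from starch, a pair of trehalose 6-phosphate synthase/phosphatases (TPS) and a hexokinase (HK), which phosphorylates glucose. In S vs. CK 4 of the 7 were called, all lower, while 418 of 21543 genes (1.94%) were called over all genes. The median log2 difference of the 7 was -0.84, against -0.05 over all genes. All of the 7 except SS were listed for this comparison, so nothing is read from this count or median. With G2 under salt (S + G2 vs. S) none was called, and 3 met the 1.5-fold criterion as the α-glucosidase did, all higher (INV 0.70, SS 0.73 and the TPS gene Glyur000018s00003759 0.66). Over all genes 3.84% met it there. SS and this TPS gene were listed for a rise in this comparison, so nothing is read from their values. The study listed INV for its fall in S vs. CK, which uses the same S libraries, and not for S + G2 vs. S. Its quantitative PCR gave lower INV with G2 under salt.

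In CK + G2 vs. CK 1 of the 7 was called, the β-amylase Glyur000067s00006388, which fell by 2.52 on the log2 scale (limma adjusted p = 0.0123). The other β-amylase, Glyur000047s00004005 (-1.29), and the TPS gene Glyur000231s00022077 (-1.85) met the 1.5-fold criterion, while none of the glucosidase genes tested met it there. Over all genes 0.0600% were called and 4.91% met the criterion in this comparison. The β-amylases and this TPS gene were listed for a fall in S vs. CK, and the β-glucosidases were listed for S vs. CK too. It uses the same CK libraries, so none of these values is an independent measure. For salt with G2 (S + G2 vs. CK + G2) none was called and SS met the criterion at 0.68. SS was listed for its rise in S + G2 vs. S, from the same S + G2 libraries. Over all genes 0.0369% were called and 7.77% met the criterion in S + G2 vs. CK + G2. The median of the 7 was 0.20 there, against -0.09 over all genes (0.003 with TMM scaling). The median of the 4 glucosidase genes was 0.37, with α-glucosidase, Glyur000779s00022830 and Glyur000585s00027748 above 0 and Glyur000214s00016036 below. The α-glucosidase, SS and the TPS gene Glyur000018s00003759 were listed for a rise that used the same S + G2 libraries. These medians are therefore descriptions, from which nothing is read.

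The genes most like each glucosidase in pattern were chosen by Pearson's r of log2(CPM + 1) over the 12 libraries, among genes with a mean of at least 5 CPM. For the α-glucosidase they were Glyur000102s00010968 (r = 0.883), Glyur000973s00026297 (0.856) and Glyur001849s00031474 (0.848). For Glyur000779s00022830 they were Glyur000036s00004667 (r = 0.908), Glyur000694s00023245 (0.900) and Glyur001132s00025468 (0.878), with r resting on few reads of the β-glucosidase. For Glyur000585s00027748 they were Glyur000586s00021833 (r = 0.881), Glyur000178s00013192 (0.866) and Glyur001011s00030363 (0.861). For Glyur000214s00016036 they were Glyur000088s00007739 (r = 0.955), Glyur000181s00013080 (0.952) and Glyur000134s00009772 (0.948). None of these is on the study's list of starch and sucrose genes, and these values are descriptions, since the highest of about 15932 correlations is large in any case and the libraries of a treatment share it.

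For 4 of the 12 libraries the nearest library over 15933 genes was of another treatment. Replicate 1 of CK + G2 was nearest to replicate 2 of S, and its mean root-mean-square log2 distance was 0.608 to its own group and 0.566 to the other libraries. Replicate 3 of S + G2 was nearest to replicate 3 of S (0.594 to its own group and 0.572 to the others), and these were the only libraries with a larger mean distance to their own group. Replicate 1 of CK (0.519 and 0.630) and replicate 3 of CK + G2 (0.536 and 0.596) were nearest to each other but closer on average to their own groups. Without replicate 1 of CK + G2, the α-glucosidase differed by 0.11 in CK + G2 vs. CK and by 0.62 in S + G2 vs. CK + G2. Without replicate 3 of S + G2, Glyur000214s00016036 differed by -1.23 and Glyur000585s00027748 by 0.10 in S + G2 vs. CK + G2. The part of these libraries' likeness in the glucosidase differences was not tested.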

How the data were processed

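Per the methods, the authors filtered out reads that were short, of low quality or ribosomal, polished the full-length reads, mapped these to a transcriptome and deposited gene and transcript values as CPM. The submitters' processing notes name minimap2, with no version, and the genome release and any use of strand in counting are likewise not given in the sources used here. All CPM values above 0 (100%) were whole multiples of 1 read, within 0.01, so the reads were recovered. Groups were compared with limma-trend (limma 3.58.1, R 4.3.3) on log2 of CPM plus 1, using the 6 libraries concerned (all 12 for the interaction of salt and G2) and keeping genes that reached 1 CPM in 3 or more of them, and p-values were adjusted by Benjamini-Hochberg over all these genes. As alternatives, edgeR 4.0.16 and DESeq2 1.42.0 were run on the recovered reads, and scaling, filter, pseudocount (0.5 and 0.1), libraries in the fit, replicate block and left-out libraries were varied. The fits were also run on simulated reads, with a common spread for all genes and changes planted only in genes above the level of Glyur000779s00022830. That run cannot speak for so low a gene or for the spread of single genes, and no result here rests on it.

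The genes named are the 4 glucosidase genes, the 7 other starch and sucrose genes of the study's list, genes that overlap or neighbour a glucosidase gene, and the 3 genes most similar to each in pattern. These members and lists were chosen with earlier results of these data known. Where the study listed a gene for a comparison, its value there is a description, and counts of calls there are printed beside those over all genes with nothing read from them. Figures were drawn with matplotlib 3.10.9.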

Additional observations from a re-analysis of the deposited data

How the results depend on the processing

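The comparison that shares no library with the listing was CK + G2 vs. CK for the α-glucosidase and S + G2 vs. CK + G2 for the β-glucosidases. There each glucosidase gene kept its direction in every alternative that could be run. None reached an adjusted p under 0.05 there, but DESeq2 gave Glyur000779s00022830 (1.22) no adjusted p in S + G2 vs. CK + G2. Glyur000779s00022830 was too low for edgeR, for a filter at a mean of 10 reads and for 3 of the settings without a library, and the annotated transcript of Glyur000585s00027748 was too low to be tested. In other comparisons some small differences changed sign. Glyur000214s00016036 in S + G2 vs. S (-0.01) gave 0.0398 with DESeq2, 0.0363 with edgeR, 0.0047 with median-of-ratios scaling, 0.00063 with TMM scaling and -0.32 to 0.25 with a library left out. With a library left out, its interaction (0.25) gave -0.063 to 0.51, the α-glucosidase in S vs. CK (0.01) gave -0.13 to 0.17, and Glyur000585s00027748 in CK + G2 vs. CK (0.10) gave -0.19 to 0.28. Glyur000779s00022830 in S vs. CK, the one glucosidase call, was lost with a pseudocount of 0.1, with the annotated transcripts alone, with the replicate block and without each of the CK libraries. It was too low to be tested there without any one of the S libraries, with edgeR or with the filter at a mean of 10 reads. DESeq2 gave it no adjusted p and called Glyur000214s00016036 in its place.

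The counts over all genes moved more. In CK + G2 vs. CK (13 calls) DESeq2 called 96, edgeR 0 (873 met the 1.5-fold criterion with edgeR), the filter at a mean of 10 reads 4, median-of-ratios scaling 5, TMM scaling 5, no filter 5, a pseudocount of 0.1 4 and left-out libraries 0 (without replicate 2 of CK + G2) to 32 (without replicate 1 of CK). In S + G2 vs. CK + G2 (8 calls) DESeq2 called 126, edgeR 3, the filter 2, median-of-ratios and TMM scaling 3 each, pseudocounts of 0.1 and 0.5 5 each, all 12 libraries 5 and left-out libraries 1 to 40 (without replicate 3 of S + G2). In S vs. CK (418) DESeq2 called 690, all 12 libraries 221 and left-out libraries 167 to 336. In S + G2 vs. S (1) DESeq2 called 34, all 12 libraries 0 and left-out libraries 0 to 9, and for the interaction (1) DESeq2 called 50 and left-out libraries 0 to 10. The calls higher and lower were 4 and 9 in CK + G2 vs. CK (1 and 4 with TMM scaling) and 5 and 3 in S + G2 vs. CK + G2 (3 and 0 with TMM scaling). The causes of these changes were not tested.

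For libraries with the same replicate number, the correlations of their deviations from the group means ran from -0.246 to 0.146. No strong likeness was seen, and whether such libraries share more than the number is not stated in the sources used here. With the replicate block 360 genes were called in S vs. CK, 0 in S + G2 vs. S, 11 in CK + G2 vs. CK, 2 in S + G2 vs. CK + G2 and 1 for the interaction.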

Other observations

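The ratio of reads between the β-glucosidase genes Glyur000585s00027748 and Glyur000214s00016036, which does not depend on how a library is scaled, was looked at after seeing the data. It was 2.52, 1.64 and 3.10 in the CK libraries, 6.47, 1.71 and 2.53 in CK + G2, 14.6, 6.47 and 7.55 in S and 7.79, 9.24 and 5.16 in S + G2. The lowest salt library (5.16) lay below the highest library without salt, replicate 1 of CK + G2 (6.47). For S + G2 vs. CK + G2 the log2 difference was 1.24 (two-sided exact permutation test, p = 0.2, with 0.1 the smallest p that 3 against 3 libraries allow). For S + G2 vs. S and for CK + G2 vs. CK the same exact permutation test gave p = 0.6 each. Each of these G2 comparisons uses a group, S or CK, by which both genes were listed, so neither is an independent measure. No p is given for S vs. CK because the genes were listed for it.

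The gene next to the α-glucosidase on the same strand, Glyur000005s00001104, ends 1666 bases before it and had mean levels of 13.3 CPM in CK, 21.2 in CK + G2, 23.1 in S and 30.2 in S + G2. Like the α-glucosidase it was highest in S + G2, but it was not tested. Glyur000005s00001106, on the other strand, had 0.736, 0.453, 2.40 and 2.11 CPM. Glyur000214s00016036 is the one glucosidase gene with an annotated gene inside it, Glyur000214s00016037 on the opposite strand (Scaffold00214:216989-218200), which has no value in the gene table. Whether reads of that gene were counted in the β-glucosidase value was not tested.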
